A study of Mus musculus with 2 samples.

Results

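The genes described here are 48 regulators of pre-mRNA splicing, chosen by symbol from the 55536 annotated genes of the deposited tables. They comprise 12 SR and SR-like proteins, 18 hnRNP and polypyrimidine tract-binding proteins, 8 kinases and cyclins that act on them, and 10 splice-site and SR-related factors. The rule used symbols alone, but the list was chosen with earlier results of these data known. All 48 had expected counts in both libraries, and together they carry 525 annotated transcripts. The RNA was total RNA of the nuclear fraction of macrophages, differentiated in culture from mouse bone marrow (strain C57BL/6J), and was sequenced as 2 libraries that form a single group. These macrophages are primary cells grown from marrow precursors. The cells received 100 ng/ml Lipid A, the TLR4-activating moiety of endotoxin, for 12 hours, then 12 hours of washout, then 100 ng/ml Lipid A again for 60 min. One label field names the nucleoplasmic fraction and another the nuclear fraction. Cells without Lipid A, or stimulated once, were not analysed here, so the values describe levels in this state and not a response. The libraries were made from 1 µg of RNA in replicate 1 and from 500 ng in replicate 2. The labels call them biological replicates but give the same donor, so the spread between them may be technical.

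SR proteins bind exonic enhancers through RNA recognition motifs and recruit the splicing machinery through arginine-serine domains, whereas hnRNP proteins often repress the sites they bind. CLK kinases phosphorylate SR proteins in the nucleus and SRPK kinases do so mainly in the cytoplasm, and phosphorylation sets where SR proteins reside and whether they bind RNA. Many of these genes are known to regulate their own mRNA by including an exon with a premature stop, or by keeping an intron that holds the transcript in the nucleus. The first kind of transcript is annotated under nonsense-mediated decay, the cytoplasmic pathway that degrades mRNAs whose stop codon lies well before the last exon junction. The second is annotated as retained intron. In nuclear RNA, a stable retained-intron transcript and a pre-mRNA not yet spliced at that intron cannot be told apart.

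As a check of the cells, all 9 macrophage markers were present, between 28.9 TPM (Spi1, replicate 2) and 2211 TPM (Lyz2, replicate 1). No neutrophil, lymphoid, mast cell, dendritic or stromal marker exceeded 1.48 TPM (Pecam1, replicate 1), and Pf4, a platelet factor listed with erythroid and megakaryocyte markers, had 23.3 and 17.5 TPM. The nuclear RNA Malat1 stood at 20269.6 TPM in replicate 1 and 18932 in replicate 2. In bulk RNA such as this, fewer cells of a type and less RNA per cell cannot be told apart. Expected counts summed over annotated genes came to 23630328 for replicate 1 and 15687634 for replicate 2. The 48 regulators took 0.928% and 1.01% of them, between 125 counts (Srsf9, replicate 2) and 26401 counts (Son, replicate 1) per gene. TPM is a length-corrected share of the library, so levels of different genes can be compared on it.

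The splicing regulators were expressed at high levels. Of the 48, 44 had 10 TPM or more in both libraries (91.7%), against 14.8% of the 22015 annotated nuclear-encoded protein-coding genes, many of them not expressed here. Of the 8725 other expressed genes, 3224 passed. The median regulator stood at 55.8 TPM (replicate 1) and 46.3 TPM (replicate 2), and the median of the 8725 other expressed protein-coding genes (1 TPM or more in both libraries) was 9.08 and 6.50 TPM. A total of 10 regulators had 100 TPM or more in both libraries, a floor at which other genes were not counted. TPM of the second deposited quantifier ran lower, with a median regulator of 20.8 TPM (replicate 1) and 31.4 TPM (replicate 2). By it 38 regulators had 10 TPM or more in both libraries and 2, Rbm39 and Ccnl1, had 100 TPM or more. Other genes were not counted at these floors with the second quantifier. All TPM values given here are of the first quantifier unless the second is named. Rbm39, a U2AF-related splicing factor and nuclear receptor coactivator (ENSMUSG00000027620.16, chr2:156147239-156180238, mm10), was the highest with 348 ± 49.99 TPM (SD, n = 2). The lowest was Hnrnpr with 7.35 ± 0.31 TPM. In the order of mean TPM, only 10 of the 47 neighbouring pairs lay farther apart than the larger SD of the pair, so most adjacent ranks are not resolved by these replicates. The order itself was alike in the 2 libraries, with a Spearman rho of 0.978 over the 48 genes, which share library, depth and quantifier.

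**Figure D1:**
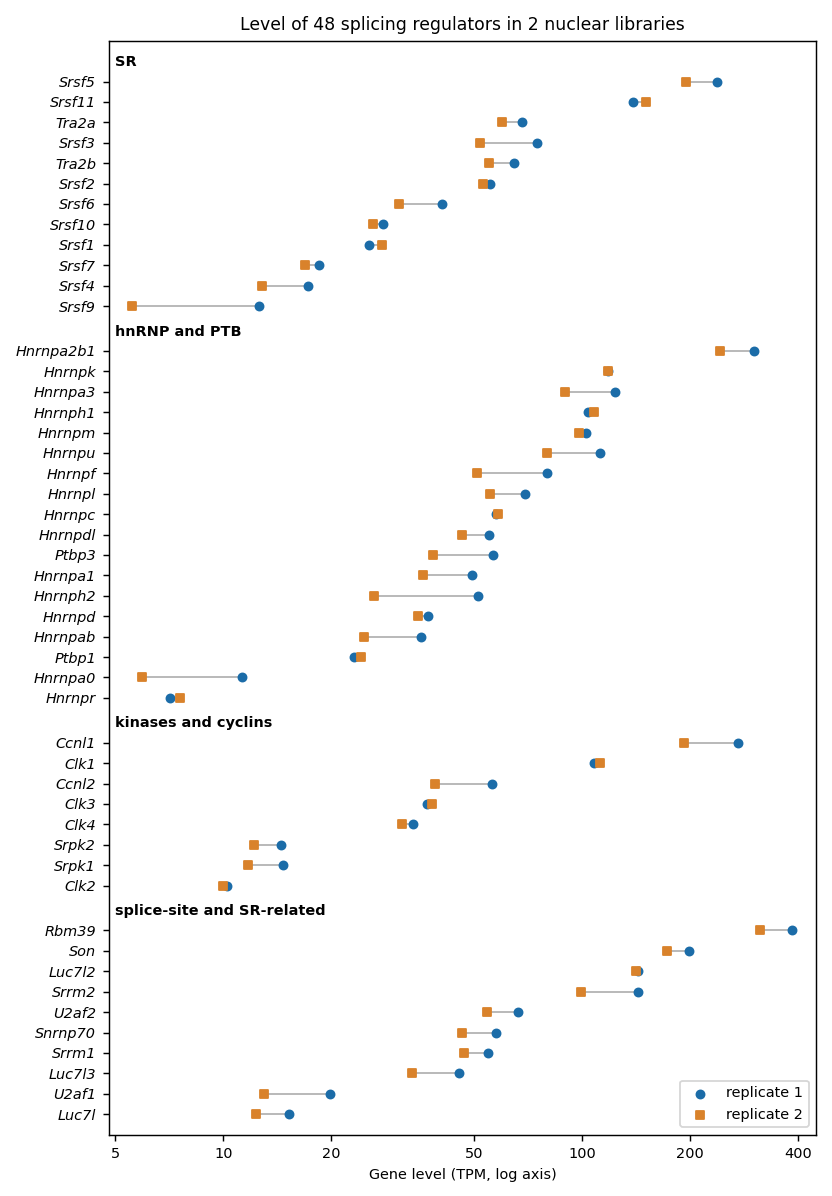
Gene level (TPM, log axis) of each of the 48 splicing regulators, grouped by role and ordered by mean, with a circle for replicate 1 and a square for replicate 2. Levels run from 5.56 TPM (Srsf9, replicate 2) to 384 TPM (Rbm39, replicate 1), and most pairs of points lie close together relative to that range.

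Among the SR genes, Srsf5 and Srsf11 stood above the rest. Srsf5, one of the classical SR proteins, had 238 TPM (replicate 1) and 194 TPM (replicate 2). Srsf11 had 139 and 150.4 TPM. Both Srsf5 values lay above both Srsf11 values, and both genes lay above the remaining SR genes in each library. Tra2a, a transformer-2 homologue that binds GA-rich enhancers, followed with 68.0 and 59.9 TPM. Srsf3, the smallest SR protein, had 75.0 and 52.0 TPM, so the values of these 2 genes overlapped. Srsf4 had 17.2 and 12.9 TPM and was second lowest, and Srsf9 was lowest with 12.6 TPM in replicate 1 and 5.56 in replicate 2. The other 6 SR genes lay between these, with Tra2b at 59.8 ± 6.67 TPM and Srsf7 at 17.7 ± 1.12 TPM at the ends of their order.

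The 18 hnRNP genes ran from 5.94 TPM (Hnrnpa0, replicate 2) to 301 TPM (Hnrnpa2b1, replicate 1). Hnrnpa2b1, which binds UAG-containing RNA and sorts microRNAs, had 301 and 243 TPM. Hnrnpk, a binder of C-rich RNA, had 118 TPM in both replicates, Hnrnpa3 had 124 and 89.7 TPM, and Hnrnph1, which binds runs of G, had 104 and 108 TPM. These 4 were all above the hnRNP median of 56.9 and 48.7 TPM, and Hnrnpa2b1 exceeded each of the other 17 in both libraries. At the low end were Hnrnpa0, a binder of AU-rich elements, with 11.3 and 5.94 TPM, and Hnrnpr with 7.13 and 7.57 TPM. The hnRNP median exceeded the SR median by 0.27 ± 0.014 on the log2(TPM + 0.1) scale (SD, n = 2). That gap is small beside the spread of genes within either family. The difference came to 0.65 with the second quantifier and to 0.97 when only coding transcripts were summed.

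Of the kinases and cyclins, Ccnl1 was the highest. Ccnl1 encodes cyclin L1, a partner of CDK11 that sits in nuclear speckles, and had 272 TPM (replicate 1) and 192 TPM (replicate 2). Its paralogue Ccnl2 had 56.2 and 39.0 TPM. Among the CLK kinases Clk1 led with 108 and 112 TPM, followed by Clk3 with 37.0 and 38.2 TPM, Clk4 with 33.8 and 31.5 TPM, and Clk2 with 10.3 and 9.99 TPM. The steps from Clk1 to Clk3 and from Clk4 to Clk2 were larger than the SDs of these genes, which ran from 0.19 to 2.92 TPM. Srpk1 had 14.7 and 11.8 TPM and Srpk2 had 14.5 and 12.2 TPM, values that overlapped.

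The splice-site and SR-related group held some of the most abundant members. After Rbm39 came Son, a large speckle scaffold protein, with 199 and 173 TPM, and Luc7l2, a U1 snRNP-associated factor, with 144 and 141 TPM. Srrm2, the other speckle scaffold, had 144 TPM in replicate 1 and 99.6 in replicate 2. All 10 genes of this group were above 10 TPM in both libraries. U2af1, which recognises the AG at the 3' splice site, had 19.9 and 13.0 TPM, and Luc7l had 15.3 and 12.4 TPM, the lowest of the group. U2af2, the partner of U2af1 that binds the polypyrimidine tract, stood higher, at 60.3 ± 8.24 TPM.

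A large share of this RNA was assigned to transcripts that do not carry a coding annotation. Over the 48 regulators, the median share of a gene's TPM on protein-coding transcripts was 44.2% in replicate 1 and 37.9% in replicate 2 (41.1 ± 4.48%, SD, n = 2). In the 8725 other expressed genes it was 81.1% and 79.0%. Of the 47 regulators with more than a single annotated transcript, 26 had under 50% on coding transcripts in both libraries (55.3%, against 14.6% of the 8213 expressed genes with 2 or more transcripts, regulators included). In 19 of the 47 the highest transcript was not a coding one in both libraries (40.4%, against 9.59%), and in 15 of the 19 this held with the second quantifier too. TPM gives short transcripts more weight than read counts do: by expected counts the median coding share of the regulators was 56.9%. The share by counts was not computed for other genes, so 56.9% has no counterpart among the values above.

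**Figure D2:**
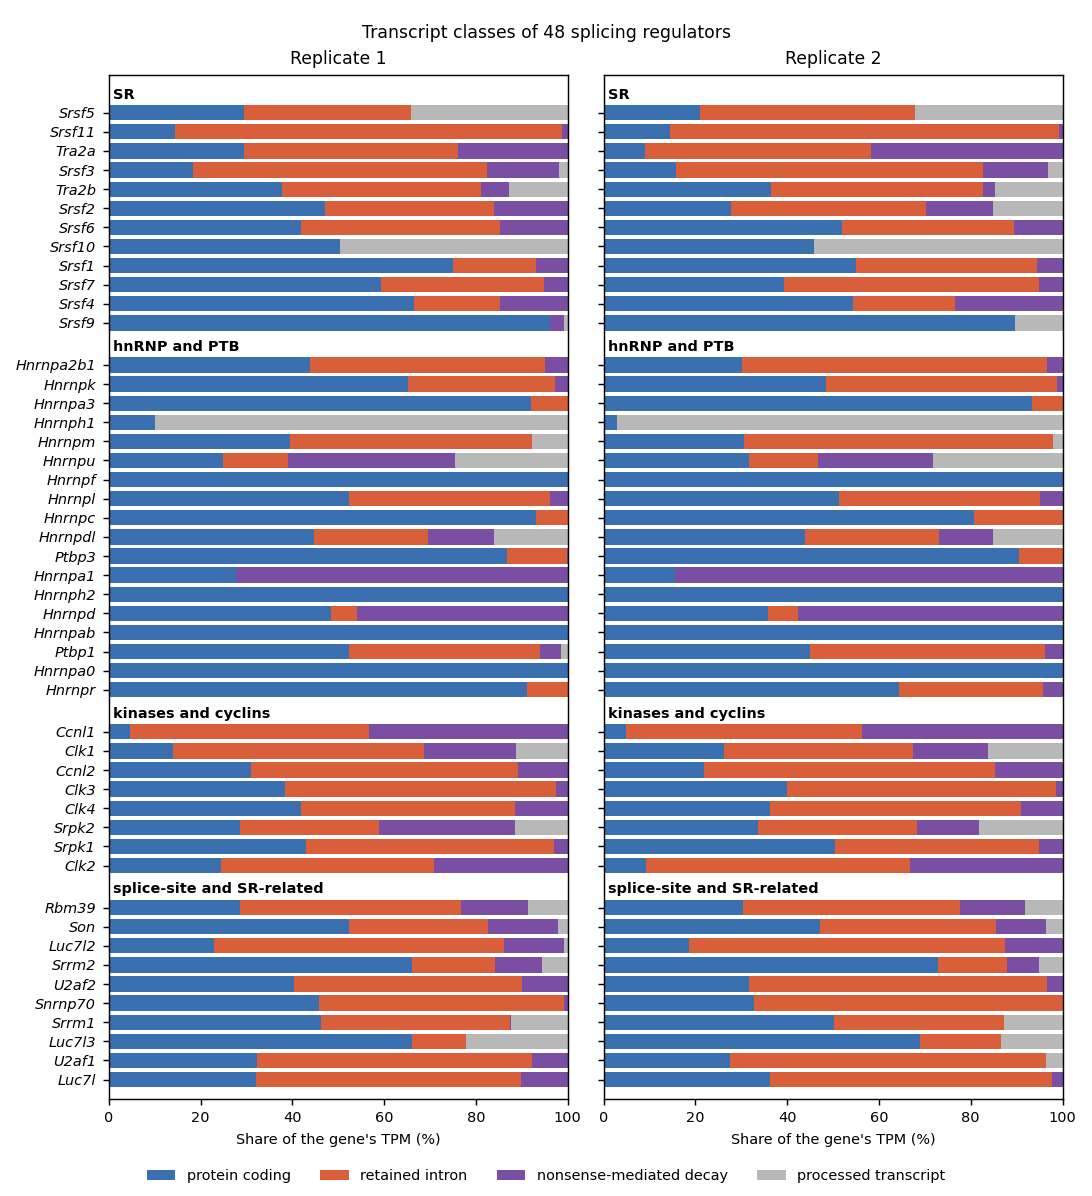
Share of each gene's TPM (%) on protein-coding, retained-intron, nonsense-mediated decay and processed transcripts, by role, with replicate 1 on the left and replicate 2 on the right. Coding transcripts hold a median of 44.2% in replicate 1 and 37.9% in replicate 2, and the kinases and cyclins have the least of any role.

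Regulators also have more annotated transcripts than other genes, a median of 10 against 6, which touches every share. Genes with 10 or more transcripts were therefore also compared. Among them the coding share was 44.8% and 36.0% in 28 regulators, and 62.1% and 58.0% in 1664 other genes. Among genes of 10 TPM or more in both libraries it was 43.4% and 36.4% in 44 regulators, and 77.6% and 74.8% in 3224 other genes. These medians are descriptions, since the regulators were a chosen list and no test was made. By role, the median coding share was 29.8% and 29.9% in the kinases and cyclins, 43.1% and 34.5% in the splice-site factors, 44.6% and 37.9% in the SR genes, and 58.8% and 49.8% in the hnRNP genes. The hnRNP genes were thus the nearest to the other expressed genes and the kinases and cyclins the farthest.

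**Figure D3:**
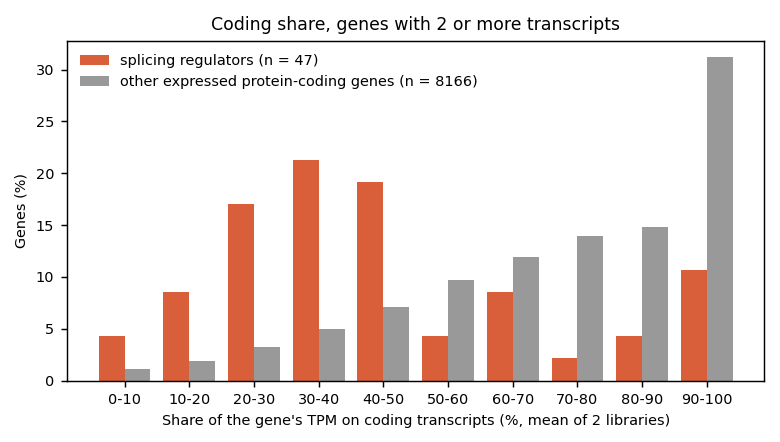
Distribution of the share of a gene's TPM on coding transcripts (%, mean of 2 libraries, x axis) as a percentage of genes (y axis) for 47 splicing regulators and 8166 other expressed protein-coding genes with 2 or more transcripts. The regulators are most frequent between 20% and 50%, and the other genes between 90% and 100%.

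Retained-intron transcripts held the largest noncoding share. They took 38.1% of the summed TPM of the 48 genes in replicate 1 and 43.5% in replicate 2, with 12.1% and 10.8% on decay transcripts and 8.32% and 9.34% on processed transcripts. Of the 40 regulators with such a transcript, 29 had 25% or more of their TPM on it in both libraries (72.5%), against 35.8% of the 5643 expressed genes that have one. All 8 kinases and cyclins passed, as did 8 of 10 SR genes, 8 of 10 splice-site factors and 5 of 12 hnRNP genes with such a transcript. The largest share was in Srsf11, with 84.4% in replicate 1 and 84.6% in replicate 2. Luc7l2 had 63.3% and 68.8%, Srsf3 had 64.1% and 66.7%, and U2af1 had 60.0% and 68.9%. In these 4 genes the transcripts labelled retained intron exceeded the coding transcripts in each library. Ccnl2 had 58.3% and 63.5%, Snrnp70, the U1 snRNP 70-kDa protein, had 53.2% and 67.3%, Hnrnpm had 52.8% and 67.2%, and Luc7l had 57.6% and 61.5%. The unit mattered for some of them: by expected counts Hnrnpm had 33.5% and 41.2%, whereas Srsf3 had 69.5% and 73.2%. The main Hnrnpm retained-intron transcript, Hnrnpm-213, is only 591 bases long, against 4010 bases for Srsf3-204.

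For some of the regulators such introns can be placed in the gene models. A total of 73 introns of 29 regulators lie whole within an exon of a transcript without coding annotation, 64 of them between coding exons. No floor was set on the level of these transcripts. Srsf11, Luc7l2, U2af1, Hnrnpm and Luc7l, named above for large retained-intron shares, had no such intron. The 73 introns were short, with a median of 373 bases against 1042 bases for the other introns of the regulators, and ranged from 78 to 2375 bases. The same held in other expressed genes, where the medians were 276 and 1513 bases. These introns made up 11.9% of the introns of the regulators and 5.91% of those of other genes. In 14 regulators a single such intron was carried by 20% or more of the gene's TPM in both libraries. The same count was not made in other genes, so whether it is high for the regulators is not known. Of the 73, 71 begin with GT and end with AG. Their donor sites matched the consensus CAGGTAAGT at a median of 6 of 9 bases, as did those in other genes, and 7 or more matches occurred in 32.9% of them, against 35.9% in other genes. By this count the donors of the regulators and of other genes were close.

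The CLK genes show the pattern around a corresponding exon. In the 13-exon coding transcripts of Clk1 (chr1:58410189-58424066), Clk2 (chr3:89164795-89176921), Clk3 (chr9:57750624-57765860) and Clk4 (chr11:51261730-51281766), exon 4 is 91, 88, 97 and 91 bases long. In mouse Clk1, introns 3 and 4 on either side of it are known to stay in nuclear RNA, and skipping of the exon truncates the kinase before its catalytic domain. The donors of intron 4 are shown with 3 exonic bases, the GT in capitals and 4 further intronic bases, 5' to 3', from the transcripts of GENCODE M21 on mm10.
Clk1 intron 4 donor: gatGTatag
Clk4 intron 4 donor: gatGTatag
Clk2 intron 4 donor: gatGTacaa
Clk3 intron 4 donor: gatGTacag
The first 6 bases are the same in all 4 genes, 7 of the 9 positions are the same in all 4, and Clk1 and Clk4 have the same 9 bases. Each donor matches the consensus at 4 of 9 positions, below the median of 6. The acceptors of the same introns are shown with the AG in capitals and 3 exonic bases after it.
Clk1 intron 4 acceptor: taattattcctcttttttAGatg
Clk4 intron 4 acceptor: ctttctctcccttactttAGatg
Clk2 intron 4 acceptor: cctactttctttcgtttcAGatg
Clk3 intron 4 acceptor: cagcttcttctttctcacAGatg

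Intron 4 of Clk1 (chr1:58419734-58420120, minus strand, 387 bases) and the adjoining intron 3 (871 bases) lie within single exons of Clk1-204 and Clk1-212. These transcripts held 24.98% of Clk1 TPM in replicate 1 and 20.0% in replicate 2. Transcripts that skip exon 4 held 20.2% and 16.4%, and the coding transcript Clk1-201, in which the exon is spliced on both sides, held 14.0% and 26.2%. The remainder was on transcripts that do not reach across the exon from both sides. Among them Clk1-213 (5.33 and 3.91 TPM) starts within intron 3, contains exon 4 and is spliced to exon 5. In Clk2, transcripts with intron 3 or 4 held 25.3% and 32.0%, skipping transcripts 29.2% and 33.2%, and transcripts with the spliced exon 23.4% and 9.32%. In Clk4, intron-bearing RNA held 18.3% and 20.9%, skipping transcripts, of which Clk4-203 is annotated as coding, 21.8% and 12.5%, and spliced ones 9.62% and 8.34%. Clk3 differed from the other 3 kinases in having little skipping, 2.65% and 1.49%, beside 32.5% and 24.6% with intron 3 or 4 and 26.2% and 29.1% with the exon spliced. The second quantifier gave 2.67% and 0.918% for skipping in Clk3, and 11.4% to 33.4% in the other 3 genes over both libraries.

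In Clk1-210 and Clk2-204, which skip exon 4, the reading frame ends early in the next exon. In Clk4 this was not seen: the decay transcripts that skip exon 4, Clk4-204 and Clk4-212, stop in an exon upstream of it. The last coding bases of Clk1-210 and Clk2-204 are shown from the start of exon 5, with the stop codon in capitals.
Clk1-210: atgaaattgttgatacttTAG
Clk2-204: atgaaattgTAA
Clk1-210 had 21.6 TPM (replicate 1) and 17.9 TPM (replicate 2), with its stop 809 bases before the last exon junction. Clk2-204 had 3.0 and 3.31 TPM and was the highest of the 11 Clk2 transcripts in both libraries. Its stop lies 818 bases before the last junction. Both are annotated under nonsense-mediated decay, a pathway that acts on cytoplasmic mRNA, and both were measured here in nuclear RNA.

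The shortest retained intron of Clk1 between coding exons with a large share is intron 6, of 87 bases (chr1:58417180-58417266). It is shown whole, in the sense of the transcript, with its ends in capitals, as an example of how compact these introns can be. It lies within transcripts holding 21.7% and 17.3% of Clk1 TPM.
Clk1 intron 6: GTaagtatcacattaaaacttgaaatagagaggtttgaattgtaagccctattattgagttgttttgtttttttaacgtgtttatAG
Intron 4 of Clk3 (chr9:57758351-57758626, 276 bases), shown because its donor follows the corresponding exon, was within Clk3-203, the highest Clk3 transcript, with 19.6% and 20.0% of the gene's TPM.
Clk3 intron 4: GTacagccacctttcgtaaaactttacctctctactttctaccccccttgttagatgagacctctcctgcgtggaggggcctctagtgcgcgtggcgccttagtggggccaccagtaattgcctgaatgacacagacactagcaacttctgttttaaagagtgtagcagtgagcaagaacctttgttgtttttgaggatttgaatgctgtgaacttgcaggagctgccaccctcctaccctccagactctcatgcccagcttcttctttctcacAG

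**Figure D4:**
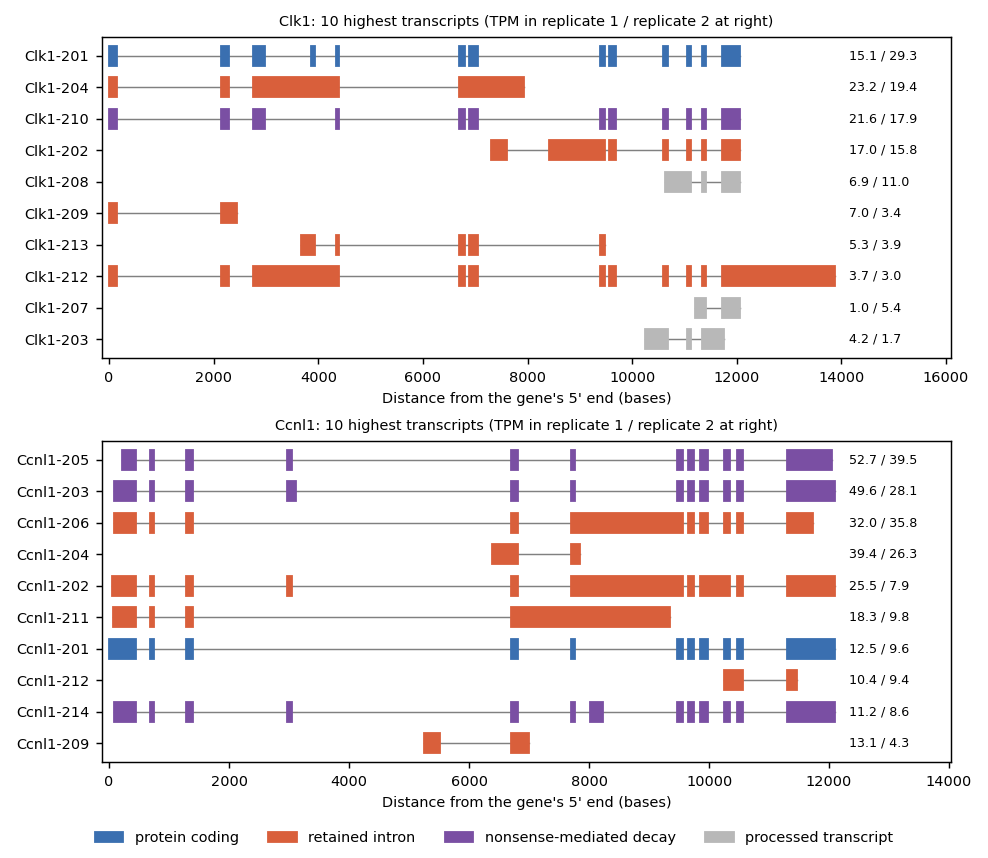
Exon structure of the 10 highest transcripts of Clk1 (top) and Ccnl1 (bottom) by distance from the 5' end of the gene (bases), coloured by annotated class, with TPM in replicate 1 and replicate 2 at the right of each. In Clk1 the third exon box of Clk1-204 and Clk1-212 covers introns 3 and 4. In Ccnl1 the coding transcript Ccnl1-201 ranks seventh.

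Ccnl1 (chr3:65946151-65958249) had the smallest coding share of the kinases and cyclins, averaged over both libraries. Its coding transcript Ccnl1-201 held 4.58% of the gene's TPM in replicate 1 and 4.96% in replicate 2. Retained-intron transcripts held 52.0% and 51.4%, and nonsense-mediated decay transcripts 43.4% and 43.6%. These shares differed by under 1 percentage point between the libraries. Intron 5 (chr3:65948791-65950479, 1689 bases) was within transcripts of 21.1% and 22.7% of the TPM. Its donor ctgGTaagt matches the consensus at 8 of 9 bases, against 4 of 9 for the intron 4 donors of the CLK genes. The decay transcripts Ccnl1-205 and Ccnl1-203 carry an extra exon that no coding Ccnl1 transcript contains. Ccnl1-205 had 52.7 TPM in replicate 1 and 39.5 in replicate 2, and Ccnl1-203 had 49.6 and 28.1 TPM, so both exceeded Ccnl1-201 at 12.5 and 9.55 TPM. With the second quantifier the coding share was 2.21% and 2.58%.

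Exons of this kind, often called poison exons, were present in several other regulators. The annotation gives 83 nonsense-mediated decay transcripts in 39 of the 48 genes, 81 of them with the stop more than 50 bases before the last junction. The stop lies in an exon absent from all coding transcripts in 33 transcripts of 15 genes, which held 50.5% and 52.5% of the decay-class TPM of the regulators. Much of this was Ccnl1 alone. Of 235.65 TPM in replicate 1, Ccnl1-205 had 52.67 and Ccnl1-203 had 49.65. Of 182.65 TPM in replicate 2 they had 39.49 and 28.13. In a further 38 transcripts of 23 genes, with 31.8% and 27.6%, another stop lies in an exon shared with coding transcripts. In the last 12 transcripts of 7 genes, with 17.7% and 19.9%, the stop is that of a coding transcript. No floor was set on level in these counts. Among transcripts with the stop in an exon absent from coding transcripts, Srrm1-209 and U2af1-209 were listed at 0 in both libraries. The ends of the reading frame within the added exons are shown for the genes in which such exons are best known, with the stop codon in capitals, from M21 transcripts on mm10.
Srsf3-201, chr17:29039454-29039909, 456 bases: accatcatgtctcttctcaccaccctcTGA
Srsf7-203, chr17:80204622-80205081, 460 bases: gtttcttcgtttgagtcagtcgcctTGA
Tra2b-206, chr16:22258986-22259261, 276 bases: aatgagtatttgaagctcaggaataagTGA
Tra2a-202, chr6:49252803-49253108, 306 bases: aaaaaattgaacagaagattggtcagaTAG
Ccnl1-205, chr3:65955204-65955276, 73 bases: gaccagctacatttaccaaagcctgggTGA
Srsf3-201 had 11.7 TPM (replicate 1) and 7.40 TPM (replicate 2), close to the 13.7 and 8.25 TPM of the coding transcript Srsf3-202. Tra2a-202 had 16.2 and 24.9 TPM. Tra2b-206 had 3.81 and 1.36 TPM, against 14.1 and 10.7 TPM for the coding Tra2b-204, and Srsf7-203 had 0.96 and 0.85 TPM, against 5.23 and 4.58 TPM for Srsf7-201. The poison-exon form was thus near the coding form in Srsf3 and well below it in Tra2b and Srsf7. In Tra2a the comparison is unsettled: the coding transcript Tra2a-201 had 14.0 TPM in replicate 1 and was listed at 0 in replicate 2, and the second quantifier listed it at 0 in both.

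Decay transcripts passed the share at the background rate. In all, 4 of the 39 genes had 25% or more of their TPM on them in both libraries (10.3%), and among the 2774 expressed genes with such a transcript it was also 10.3%. The 4 were Hnrnpa1, Hnrnpd, Ccnl1 and Clk2. Annotation differed: 81.2% of the regulators and 31.3% of other expressed genes have a decay transcript. Among genes that have one, the median decay share was 10.2% and 5.48% in the regulators, and 3.78% and 2.98% in other expressed genes. For those with 10 or more transcripts it was 5.06% and 5.02%, against 3.59% and 3.27%. No test was made of these medians. Hnrnpa1 had 72.4% in replicate 1 and 84.5% in replicate 2, and Hnrnpd, an AU-rich element binder also called AUF1, had 45.9% and 57.6%. Their leading decay transcripts are of the kind that ends at the stop of a coding transcript, in which the normal stop is followed by a spliced 3' end. Hnrnpa1-203 had 21.2 and 18.9 TPM with its stop 90 bases before the last junction, and Hnrnpd-208 had 14.8 and 16.7 TPM with 137 bases. Clk2 had 29.2% and 33.2%. Past the threshold in only 1 library were Hnrnpu with 36.3% and 24.9%, Tra2a with 23.8% and 41.6%, and Srpk2 with 29.6% and 13.6%. Srsf4 had 14.7% and 23.5%.

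Hnrnpa0, Hnrnpab, Hnrnpf and Hnrnph2 have only coding transcripts in the annotation, so their coding share of 100% follows from the annotation. Hnrnph1, whose protein closely resembles that of Hnrnph2, was the opposite: 90.005% of its TPM in replicate 1 and 97.1% in replicate 2 was on transcripts annotated as processed transcripts, with 9.995% and 2.91% on coding Hnrnph1-201. Transcripts holding a whole intron made up 47.2% and 49.2% of Hnrnph1 TPM, although none of its 18 transcripts carries the retained-intron label. The biotype label therefore undercounts intron-bearing RNA in this gene. Elsewhere the label gave more than this measure. In Srsf11, Luc7l2, Hnrnpm, Rbm39 and Son the retained-intron share was 30.4% or more in each library. Yet noncoding transcripts holding a whole intron of a coding transcript made up 0% of their TPM. Srsf10, which represses splicing when dephosphorylated, lacked the label as Hnrnph1 did and had 49.7% and 54.0% on processed transcripts. In Hnrnpa3, Hnrnpc and Ptbp3 the coding share was 80.6% or more in each library, and in Srsf9 it was 96.2% and 89.6%.

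After TMM scaling of expected counts, 0 of the 48 regulators differed more than 2-fold between the replicates (by unscaled TPM 1 did with either quantifier, Srsf9 by the first and Hnrnpr by the second), against 7.66% of the 14038 genes whose counts averaged 10 or more. That set reaches lower counts than any regulator had, and among the 8768 expressed protein-coding genes, regulators included, the rate was 2.12%, about 1 gene in 48. With 1 library on each side no test was possible, and this is a description. The log2 ratio of replicate 1 over replicate 2 had a median of -0.15 over the regulators and 0.03 over other expressed genes (-0.05 for the regulators with the second quantifier), and 15 of the 48 were higher in replicate 1 (21 with the second quantifier). It ran from 0.73 in Srsf9 to -0.51 in Hnrnph1. Srsf9, Hnrnpa0 (0.47), Hnrnph2 (0.42) and U2af1 (0.27, but 0.03 with the second quantifier) were the genes farthest toward replicate 1. Hnrnph1, Clk1 (-0.46), Srsf11 (-0.45) and Srsf7 (-0.45) were farthest toward replicate 2. The deposited TPM intervals of the 2 libraries, whose level is not stated, did not overlap in 29 of the 48 genes. Other genes were not counted in this way, so the count does not set the regulators apart. TPM without such scaling depended on the quantifier. By the first quantifier 39 of the 48 genes were higher in replicate 1, where the median expressed nuclear-encoded protein-coding gene was itself 0.47 higher on the log2 scale. By the second quantifier 3 were (Srsf9, Hnrnpa0 and Hnrnph2), and the ratio of that median gene was -0.39. Relative to the median gene of the first quantifier the regulators again lay toward replicate 2, with a median of -0.19, Srsf11 at -0.58 and Clk1 at -0.53.

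The coding shares of these genes are given beside their ratios, with no test. Srsf9, Hnrnpa0 and Hnrnph2 had coding shares of 89.6% to 100%, whereas Hnrnph1, Clk1 and Srsf11 had 2.91% to 26.2%. U2af1 (32.2% and 27.5%) and Srsf7 (59.4% and 39.3%) lay between these. These genes are the ends of the ratio, and some others paired differently. Hnrnpc had a ratio of -0.34 with coding shares of 93.0% and 80.6%. Ccnl1 had a ratio of 0.10 with 4.58% and 4.96%. The retained-intron share was lower in replicate 1 in 29 of the 40 regulators with such a transcript and higher in 11. Among 5603 other genes it was lower in replicate 1 in 59.7%. Srsf1 had 18.1% in replicate 1 and 39.5% in replicate 2, Srsf7 had 35.4% and 55.7%, and Hnrnpr had 8.98% and 31.3%. Clk1 went the other way, with 54.6% and 41.1%. RNA input and depth also differed between the libraries, and their part in these differences was not tested.

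**Figure D5:**
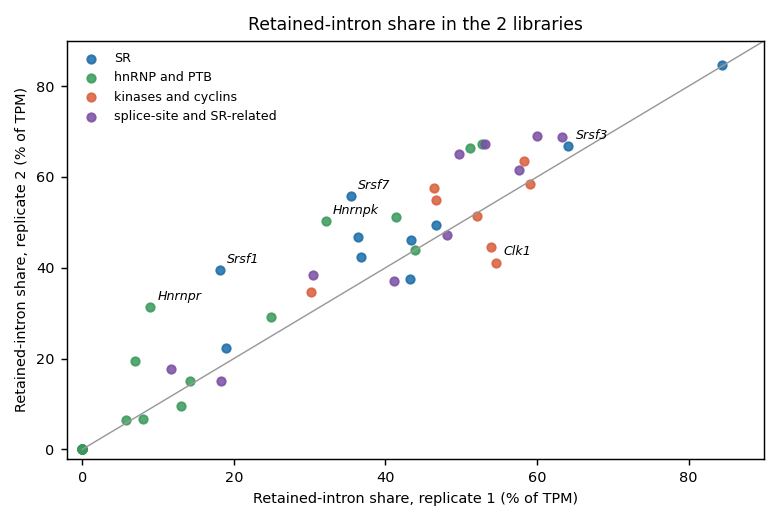
Share of a gene's TPM on retained-intron transcripts (%) in replicate 1 (x axis) and replicate 2 (y axis) for the splicing regulators, coloured by role, with the line of equal shares. Most points lie above the line (29 of 40 genes with such a transcript), and Clk1 lies below it.

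The 2 quantifiers ranked the regulators alike, with a Spearman rho of 0.970 for mean TPM and 0.914 for the mean coding share over the 48 genes. Some single levels depended on the tool. After centring on the median regulator, the second quantifier gave higher levels for Srpk1 (0.85 on the log2 scale), U2af1 (0.80) and Rbm39 (0.78), and lower levels for Hnrnpa3 (-0.78) and Hnrnpa1 (-0.55). Hnrnpa1 and Hnrnpa3 have many near-identical processed pseudogenes in the mouse genome, so their values are reported as uncertain. The part of pseudogene reads in the difference between quantifiers was not tested. The highest Hnrnpa3 transcript, Hnrnpa3-207, held 35.0% and 36.4% of the gene's TPM by the first quantifier but 0% in replicate 1 and 26.2% in replicate 2 by the second. In Rbm39 the coding share was 28.6% and 30.4% by the first quantifier, and 10.9% and 12.0% by the second. Rbm39 lay under 50% either way, but by expected counts it had 55.9% and 56.3%.

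Other splicing genes were lower and more often coding. The median level was 9.845 and 6.395 TPM in 40 core spliceosome genes and 24.7 and 18.2 TPM in 37 other regulators. Of the 40, 10 had 10 TPM or more in both libraries. The highest were Sf3b1, a U2 snRNP subunit, with 101.2 and 103.6 TPM, and the helicase Ddx39b with 102 and 71.6 TPM, and the lowest were Sf3b5 with 0.92 and 0.36 TPM and Snrpf with 0.82 and 0.42 TPM. The median coding share of that list was 68.5% and 70.3%, and 15 of its 32 genes with a retained-intron transcript passed 25% in both libraries. Of the 37, 29 had 10 TPM or more, led by Mbnl1 with 174 and 141 TPM and Rbm25 with 138 and 126 TPM. Rbm10 had 2.40 and 1.62 TPM, and Srsf12 was listed at 0. Their median coding share was 60.7% and 61.1%, and 15 of 28 passed the retained-intron share. Regulators known from neurons, muscle or epithelia were nearly absent: 14 of 19 were below 0.1 TPM in both libraries, and Nova1 and Srrm4 were listed at 0. Of the other 5, Ptbp2, the neuronal polypyrimidine tract-binding protein, had 16.0 and 17.0 TPM, Celf3 had 2.57 and 0.93 TPM, and Srpk3, Esrp2 and Celf4 lay between 0.06 and 0.32 TPM. Ptbp1 and Ptbp3, its paralogues among the 48, had 23.7 ± 0.78 and 47.4 ± 12.8 TPM.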

How the data were processed

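Nuclear RNA was measured in 2 libraries of a single group. Per the file headers, the authors deposited tables in RSEM format for genes and for transcripts. These give expected counts, TPM and its posterior mean. The authors' TPM is the estimated count over an effective length, scaled to a fixed total per library. The deposited interval bounds of TPM, a signal with no stated confidence level, come from the same tables. A further table in kallisto format, the second quantifier, gives estimated counts and TPM per transcript. Per the deposited readme files, values refer to GENCODE M21 on mm10. Not given in the sources used here are the aligner, tool versions and whether strand was used. Deposited expected counts divide reads among annotated transcripts and need not be whole. Genes with near-identical copies and overlapping or antisense genes can therefore exchange counts, and unspliced pre-mRNA is not among the annotated transcripts.

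Transcript classes are the annotated biotypes, and shares are of a gene's TPM. Introns of coding transcripts of 50 bases or more that lie whole within an exon of a noncoding-biotype transcript were listed, and sequences were read from the M21 transcripts. Expected counts were rounded and scaled by TMM in edgeR 4.0.16 (R 4.3.3, prior count 2) for genes with a mean of 10 or more, and by DESeq2 1.42.0 size factors as an alternative. The ratio step was tested on simulated data. The remaining computation ran in Python 3.11.15 (pandas 2.3.3, numpy 2.4.6, scipy 1.17.1, matplotlib 3.10.9). With 1 group no contrast exists and no test was made.

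The members and lists were chosen with earlier results of these data known. The genes named were set by rule and numbered 34 of 48: in each role the 4 highest and 2 lowest, the 8 largest retained-intron and the 8 largest decay shares, the 4 farthest apart between replicates in each direction, the 5 most different between quantifiers, and 8 background examples. Other members are named where the account of a group needed them, and were picked after their values were seen. The comparison of exon 4 among the CLK genes was likewise added after the data were seen. Of each other list the 2 highest and 2 lowest are named, chosen among ties where several genes were at 0. Alternatives covered the quantifier, point estimate, scaling, floors, thresholds, pseudocount, short transcripts, and each library alone.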

Additional observations from a re-analysis of the deposited data

How the results depend on the processing

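The 7 results gave 48 alternative values. Of these, 40 stayed close to the value given, that is within 1.5 times for a count (6 against 4 decay genes included) and within 1 SD between replicates for a median, 8 moved and 0 reversed. With TPM not centred, 1 regulator (Srsf9) was over 2-fold apart between replicates, as was 1 (Hnrnpr) with TPM of the second quantifier not centred, an alternative chosen after seeing the data. With DESeq2 size factors, centred TPM, TMM-scaled counts of the second quantifier or no filter on counts, 0 were. The count of genes past the retained-intron share became 11 at a threshold of 50%, and the count past the decay share became 17 at 10% and 1 at 50%. Other genes were not counted at these thresholds, so these counts do not set the regulators apart. The median coding share became 56.9% by expected counts, a unit that gives short transcripts less weight. The hnRNP median minus the SR median became 0.65 with the second quantifier and 0.97 with coding transcripts only, in both cases with the cause not tested. From each library alone, the count at 10 TPM ran from 44 to 47, the retained-intron count from 29 to 32, the decay count from 5 to 6, the median coding share from 37.9% to 44.2%, the difference of medians from 0.26 to 0.28, and the count with a noncoding highest transcript from 23 to 24. No paired analysis was possible because there is a single group. The 125 counts of Srsf9 in replicate 2 are the fewest behind any member, so its ratio is the least certain for counting error.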
